A study of Mus musculus with 8 samples.

Results

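The genes of the small leucine-rich proteoglycans were followed through RNA-seq counts of mouse embryonic fibroblasts (MEFs) treated with 1 of 3 compounds. They were 10 of the 50578 genes listed, namely Bgn, Dcn, Aspn, Fmod, Lum, Prelp, Kera, Omd, Ogn and Podn, and all 10 were among the 15154 genes tested. The members were picked by name with the counts of all 8 libraries already known. Their own levels, differences, intervals and calls are therefore given as a description of the fit. No p-value is printed for them, and the calls do not serve as a test of the members. The study held 4 groups of 2 libraries each, labelled wild type in genotype. Its MEFs, derived per the methods from C57BL/6J embryos, were between passages 3 and 5. The first group was the MEF control, for which the labels name no vehicle. The other 3 received Carbidopa, LY-364747 or CHIR-99021, each at 10 µM. Carbidopa inhibits aromatic L-amino acid decarboxylase, and CHIR-99021 inhibits glycogen synthase kinase 3. The study's text names a TGF-beta receptor inhibitor whose code name differs from LY-364747 by a digit, and the spelling of the labels is kept here. The length of treatment before these RNA samples was not given in the sources used here. Nor do the labels say whether the libraries of a group came from separate cultures, so every p-value below measures the spread between these libraries, which may be technical.

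Small leucine-rich proteoglycans are secreted proteins with a core of leucine-rich repeats, to which most members attach chondroitin, dermatan or keratan sulfate chains. In connective tissue they coat collagen fibrils and set their thickness and spacing, and several bind growth factors such as TGF-beta or engage cell surface receptors. Bgn (biglycan), Dcn (decorin) and Aspn (asporin) form class I of the family. Fmod (fibromodulin), Lum (lumican), Prelp, Kera (keratocan) and Omd (osteomodulin) form class II. Ogn (osteoglycin, also called mimecan) belongs to class III and Podn (podocan) to class V. Fibroblasts are a main source of them.

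The libraries held between 15039566 and 20504338 counts. The labels describe the treated cells as hepatic in kind. The summed level of 10 epithelial and hepatocyte markers was 3.23 to 4.31 CPM (counts per 1000000) in MEF and 10.3 to 21.4 CPM over the treated libraries. Of these only the keratin genes Krt18 and Krt19 passed the filter. Krt19 rose with each compound, from a mean of 2.76 CPM to 15.3, 9.38 and 7.05 CPM, and Krt18 rose with CHIR-99021, from 0.509 to 2.69 CPM. The hepatocyte genes Alb, Hnf4a, Afp, Apoa1 and Ttr were not tested, at means of at most 0.520 CPM, that of Hnf4a with LY-364747. Alb had means of 0.0744 CPM in MEF and 0.304, 0.491 and 0.376 CPM with Carbidopa, LY-364747 and CHIR-99021, while Ttr was at 0 in MEF, Carbidopa and LY-364747, Apoa1 at 0 in MEF and Afp at 0 with LY-364747 and CHIR-99021. The 9 fibroblast markers, 3 of which are collagens counted again below, summed to 32915 to 33559 CPM in MEF and 6189 to 9920 CPM over the treated libraries. The 7 contractile markers summed to 3048 to 3310 CPM in MEF and 399 to 1014 CPM over the treated libraries. The 12 macrophage markers summed to 1089 to 1129 CPM in MEF, 334 to 357 CPM with Carbidopa, 248 to 253 CPM with LY-364747 and 78.4 to 87.9 CPM with CHIR-99021, and no gene of that list was at 0. The 5 tendon markers were at 95.2 to 103 CPM in MEF and 51.2 to 74.2 CPM over the treated libraries. Such sums hide genes that went the other way. In the fit described below, 4 tendon markers were called lower and 1 higher with each compound. Of the fibroblast markers, 1 was called higher with each compound, and 8, 8 and 7 lower with Carbidopa, LY-364747 and CHIR-99021. The other lists were low in MEF: bone and cartilage at 56.7 to 58.8 CPM, skeletal muscle at 47.0 to 50.3 CPM, endothelium at 16.8 to 19.6 CPM and corneal keratocytes, Kera included, at 5.58 to 6.45 CPM. In the treated libraries the same lists were at 23.6 to 46.7, 6.68 to 17.2, 11.3 to 15.6 and 0.696 to 1.45 CPM. All of these marker sums except the epithelial and hepatocyte one were lower in the treated libraries, as were most members though not Ogn. Their part in the values that follow was not tested. In such bulk samples, fewer cells of a type and less RNA per cell cannot be told apart. The 2 Carbidopa libraries differed most from each other, with a chi-square per degree of freedom of 37.9 against 4.57 to 10.0 in the other groups.

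Most members were lower with each compound, Aspn by far the most, while Dcn stayed near its MEF level with Carbidopa and LY-364747 and Ogn was higher throughout. Against MEF, 8 members were called lower and 1 higher with Carbidopa, 7 lower and 1 higher with LY-364747, and 9 lower and 1 higher with CHIR-99021, at an adjusted p under 0.05 in edgeR's quasi-likelihood test over all genes. Of all genes tested, 19.7% were called lower and 18.0% higher with Carbidopa, 17.2% and 13.7% with LY-364747, and 20.1% and 18.7% with CHIR-99021. Since the members were chosen with these values in view, nothing is read from that comparison. Their median log2 fold change was -2.93, -2.57 and -3.11, beside 0.04, 0.03 and 0.04 over all genes tested. The higher member was Ogn in each case, and the members without a call were Dcn with Carbidopa, and Dcn and Kera with LY-364747. Kera was the one member that passed the filter on low counts through the MEF libraries alone, so it could be tested only because it was higher there. Levels below are CPM on library sizes scaled by TMM, a normalization that assumes most genes do not change. Differences are log2 fold changes with their standard errors (SE) from the fit over all 8 libraries.

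**Figure D1:**
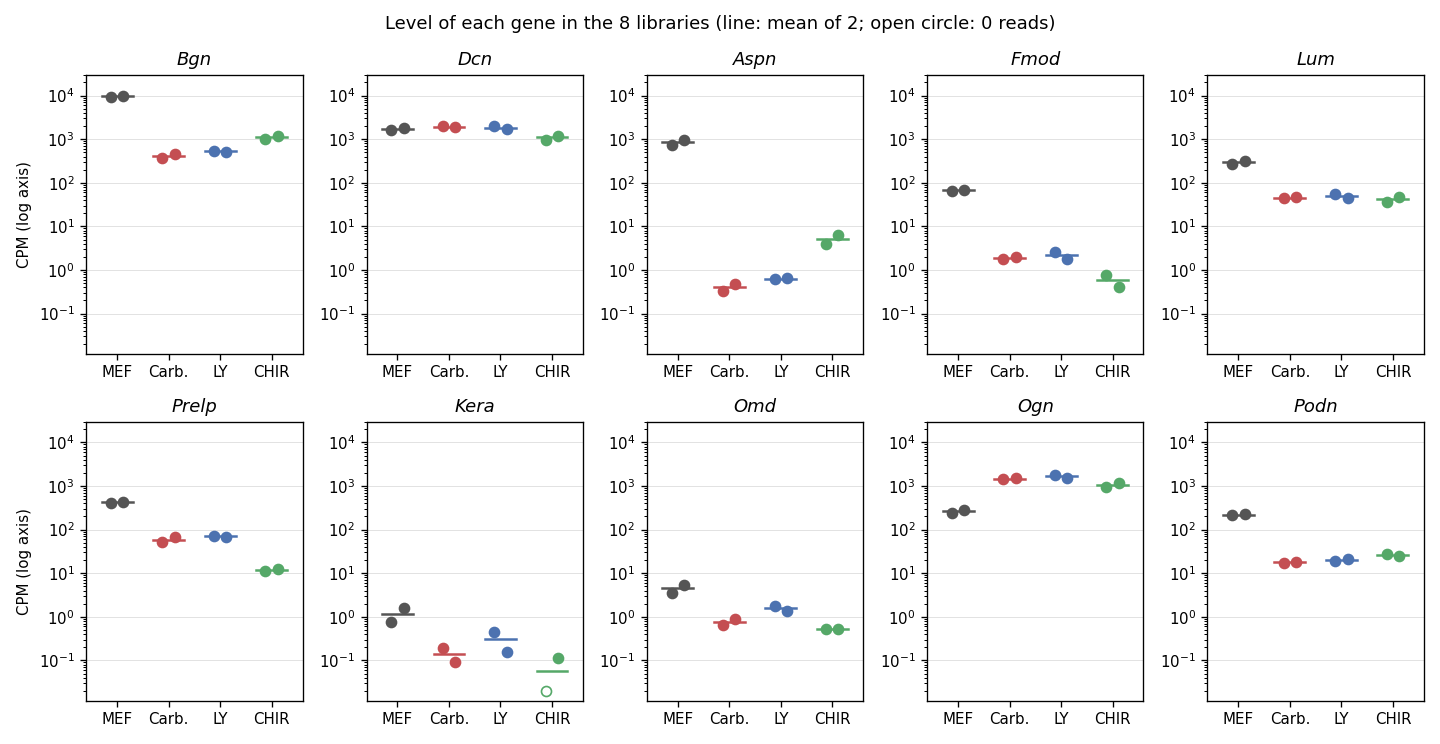
Level of the 10 genes in CPM (log axis) in each of the 8 libraries, grouped as MEF, Carbidopa (Carb.), LY-364747 (LY) and CHIR-99021 (CHIR). Points are libraries, bars across them are means of 2, and the open circle is the CHIR-99021 library with 0 Kera reads. Aspn is at 748 and 961 CPM in MEF and below 1 CPM with Carbidopa and LY-364747, while Ogn is higher in all 6 treated libraries.

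The start regions of Aspn, Omd and Ogn, neighbours on chromosome 13 whose levels went opposite ways, and of Bgn, which stands alone and had the highest level in MEF, are printed for comparison. They are RefSeq promoter windows of GRCm38.p6, from 250 bases before to 50 bases after the start site, 5′ to 3′ on the gene's strand, and such windows were found for 8 of the 10 members, all but Dcn and Lum. Capitals mark matches, on either strand, to 6 short motifs: TATAAA (the TATA-box core), CAGAC (SMAD), CTTTGA (TCF/LEF core), CATTCC (TEAD), TGANTCA (AP-1) and CACGTG (E-box).
Aspn, chr13:49544193-49544492, + strand: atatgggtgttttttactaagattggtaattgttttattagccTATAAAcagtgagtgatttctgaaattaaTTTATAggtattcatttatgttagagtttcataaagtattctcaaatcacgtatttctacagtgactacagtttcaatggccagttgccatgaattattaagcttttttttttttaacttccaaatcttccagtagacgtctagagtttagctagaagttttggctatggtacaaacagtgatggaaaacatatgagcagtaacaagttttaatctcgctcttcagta
Omd, chr13:49582212-49582511, + strand: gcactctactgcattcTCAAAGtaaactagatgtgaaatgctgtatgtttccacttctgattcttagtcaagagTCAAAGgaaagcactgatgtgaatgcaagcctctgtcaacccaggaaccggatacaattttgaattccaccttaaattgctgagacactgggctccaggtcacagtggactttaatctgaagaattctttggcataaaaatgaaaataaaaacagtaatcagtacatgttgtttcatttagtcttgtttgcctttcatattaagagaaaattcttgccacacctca
Ogn, chr13:49607765-49608064, + strand: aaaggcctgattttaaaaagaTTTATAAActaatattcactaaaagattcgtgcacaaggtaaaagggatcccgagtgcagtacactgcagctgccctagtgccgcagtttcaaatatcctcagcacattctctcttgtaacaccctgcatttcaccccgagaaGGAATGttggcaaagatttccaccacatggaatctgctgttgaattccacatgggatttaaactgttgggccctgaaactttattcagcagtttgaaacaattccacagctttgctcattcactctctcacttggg
Bgn, chrX:73483351-73483650, + strand: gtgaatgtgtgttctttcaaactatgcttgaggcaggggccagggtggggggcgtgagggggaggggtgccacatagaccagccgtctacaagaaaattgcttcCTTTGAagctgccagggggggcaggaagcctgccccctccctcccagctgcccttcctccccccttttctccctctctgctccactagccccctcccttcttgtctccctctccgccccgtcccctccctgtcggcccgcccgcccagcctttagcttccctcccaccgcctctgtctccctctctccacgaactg

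The Aspn window was 31.0% G and C and the Bgn window 63.7%, with Omd at 37.7% and Ogn at 42.3%. TATAAA matched in the Aspn window at -207 and -178 and in the Ogn window at -229 and -227, the latter as overlapping matches on both strands. CTTTGA matched in the Omd window at -234 and -176 and in the Bgn window at -146, and CATTCC in the Ogn window at -86, all positions being the first base of the match counted from the start site. CAGAC matched in Fmod, Prelp and the second of 2 windows of Podn, and no motif matched in Kera. Of all 32851 windows of that length, 13.6% held TATAAA, 49.6% CAGAC, 16.0% CTTTGA, 14.7% CATTCC, 7.81% TGANTCA and 7.15% CACGTG. These are letter matches only, and none was tested for binding.

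Among the class I genes, Bgn had the highest level of the family in MEF and Aspn the largest differences. Aspn encodes a core protein with a stretch of aspartates that binds collagen and TGF-beta. It stood at 748 and 961 CPM in the MEF libraries (10065 and 14901 reads). With Carbidopa it stood at 0.330 and 0.467 CPM (7 and 10 reads), with LY-364747 at 0.617 and 0.639 CPM (11 and 12 reads), and under CHIR-99021 at 3.97 and 6.38 CPM (69 and 110 reads). The 4 groups overlapped nowhere, so the CHIR-99021 libraries kept more Aspn than the others while every treated library lay far below MEF. The log2 fold changes against MEF were -11.04 (SE 0.29), -10.39 (SE 0.28) and -7.37 (SE 0.22).

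Bgn, a proteoglycan of bone and skin matrix that also engages Toll-like receptors, had 9201 and 9974 CPM in MEF. It had 378 and 449 CPM with Carbidopa, 547 and 520 CPM with LY-364747, and 1027 and 1184 CPM with CHIR-99021. Again the treated groups lay below MEF without overlap and CHIR-99021 was the highest of the 3, at log2 fold changes of -4.54 (SE 0.14), -4.17 (SE 0.13) and -3.12 (SE 0.13). Dcn, the closest relative of Bgn in the family, behaved otherwise. It had 1596 and 1830 CPM in MEF, 2004 and 1887 CPM with Carbidopa, 1959 and 1740 CPM with LY-364747, and 981 and 1209 CPM with CHIR-99021. Only the CHIR-99021 libraries were below MEF, at a log2 fold change of -0.65 (SE 0.13). The other differences were 0.18 (SE 0.13; 95% interval -0.10 to 0.47) with Carbidopa and 0.11 (SE 0.13; 95% interval -0.17 to 0.39) with LY-364747. The LY-364747 libraries overlapped those of MEF, and the Carbidopa libraries lay just above them.

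All class II genes were lower in every treated library than in either MEF library. How often this held over all genes tested was not counted, so nothing is read from it. Fmod, which binds collagen and assists its cross-linking, had 65.7 and 68.2 CPM in MEF. It had 1.74 and 2.01 CPM with Carbidopa, 2.53 and 1.81 CPM with LY-364747, and 0.748 and 0.406 CPM with CHIR-99021, the last from 13 and 7 reads. Its log2 fold changes were -5.15 (SE 0.19), -4.95 (SE 0.19) and -6.84 (SE 0.23), the second largest in the family. Prelp, which links basement membranes to connective tissue, had 411 and 426 CPM in MEF, 50.7 and 67.1 CPM with Carbidopa, 70.6 and 68.8 CPM with LY-364747, and 11.4 and 12.5 CPM with CHIR-99021. For both genes CHIR-99021 gave the lowest level, the reverse of Aspn and Bgn. The Prelp differences were -2.83 (SE 0.14), -2.59 (SE 0.14) and -5.13 (SE 0.16). Exons of Prelp overlap the antisense gene Gm15851, with which it shared 7.78% of its 75-base words. Gm15851 itself had at most 37 reads in a library, and the strand setting of the counting was not given in the sources used here.

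Lum, a keratan sulfate proteoglycan of cornea and skin, had 269 and 324 CPM in MEF, 45.4 and 46.6 CPM with Carbidopa, 56.4 and 44.5 CPM with LY-364747, and 37.0 and 46.3 CPM with CHIR-99021. The treated groups overlapped one another, and the differences of -2.69 (SE 0.16), -2.55 (SE 0.16) and -2.83 (SE 0.16) were close to one another. Omd, which binds hydroxyapatite and is typical of bone, was low throughout, with 48 and 85 reads in MEF (3.57 and 5.48 CPM). It had 14 and 19 reads with Carbidopa, 32 and 26 with LY-364747, and 9 in both CHIR-99021 libraries. Its differences were -2.55 (SE 0.34), -1.51 (SE 0.32) and -3.11 (SE 0.37). The call with LY-364747 was lost without MEF replicate 2, at -1.17, and without LY-364747 replicate 2, at -1.34. Of the 75-base words of Omd, 3.38% also occurred in other genes.

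Kera, the keratan sulfate proteoglycan of the cornea, had 10 and 25 reads in MEF, 4 and 2 with Carbidopa, 8 and 3 with LY-364747, and 0 and 2 with CHIR-99021. A count of 0 allows up to 3 reads. Kera was chosen with its values known and passed the filter through the MEF libraries alone, so its intervals and calls are description only. From the pooled reads, MEF was 8.60 times as high as Carbidopa (exact 95% interval 3.58 to 25.0), 4.02 times as high as LY-364747 (2.00 to 8.78) and 20.9 times as high as CHIR-99021 (5.37 to 180), intervals that cover counting error only. Without MEF replicate 2 its calls with Carbidopa and CHIR-99021 were lost, at log2 fold changes of -2.35 and -3.54 in place of -3.02 and -4.21. The CHIR-99021 call was also lost without CHIR-99021 replicate 1, at -3.28, and the value moved by 3.21 without CHIR-99021 replicate 2, the library with both reads. With LY-364747 it was called lower, at -1.96, once either Carbidopa library was left out, and also with only the compared groups fitted or with no filter, at -1.96 and -1.95.

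Ogn and Podn stand for the other classes and went opposite ways. Ogn, a keratan sulfate carrier first described in bone, had 246 and 286 CPM in MEF. It had 1466 and 1501 CPM with Carbidopa, 1826 and 1543 CPM with LY-364747, and 940 and 1167 CPM with CHIR-99021. All 6 treated libraries lay above both MEF libraries, by log2 fold changes of 2.48 (SE 0.14), 2.66 (SE 0.14) and 1.99 (SE 0.14), which are 5.57-, 6.33- and 3.96-fold. Podn, which binds collagen and restrains smooth muscle cell growth, had 214 and 223 CPM in MEF, 17.5 and 17.9 CPM with Carbidopa, 19.4 and 21.6 CPM with LY-364747, and 27.6 and 25.0 CPM with CHIR-99021. Its differences of -3.62 (SE 0.11), -3.41 (SE 0.11) and -3.05 (SE 0.11) had the smallest errors of the 10 genes.

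**Figure D2:**
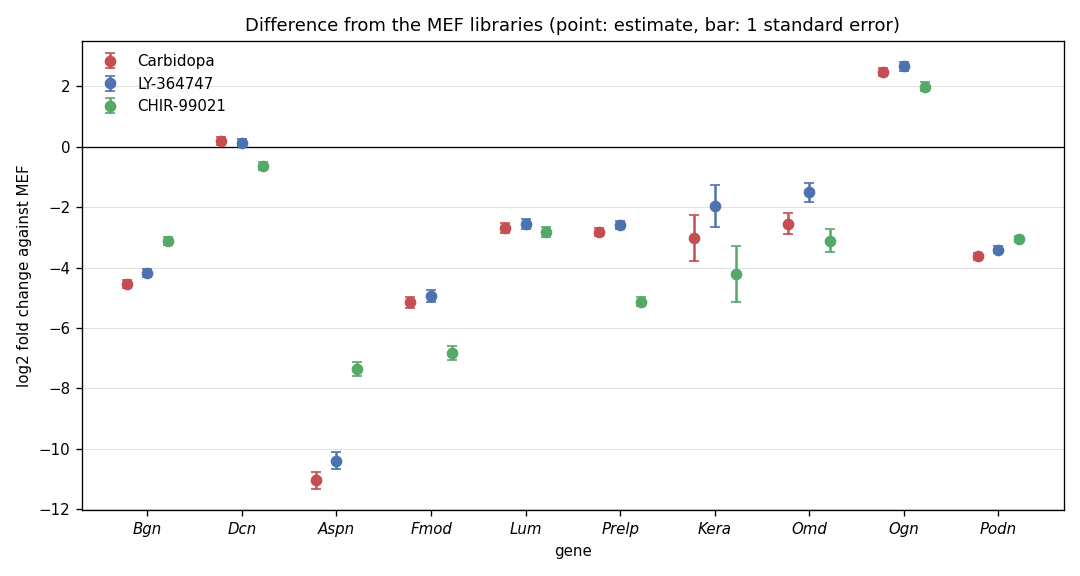
Log2 fold change of each of the 10 genes against MEF for Carbidopa, LY-364747 and CHIR-99021, in the order of the text. Points are estimates of the fit over 8 libraries and bars are 1 SE. Ogn lies above 0 for all 3 compounds, Dcn lies near 0 for Carbidopa and LY-364747, and Aspn reaches -11.04.

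Summed, the 10 genes held 13428 ± 951 CPM in MEF (SD, n = 2), 3968 ± 4.77 CPM with Carbidopa, 4213 ± 383 CPM with LY-364747 and 3341 ± 440 CPM with CHIR-99021. Bgn carried most of that difference. Without Bgn the sums were 3840 ± 405, 3555 ± 45.0, 3679 ± 364 and 2235 ± 329 CPM in the same order. The MEF libraries, at 3554 and 4126 CPM, then overlapped those with LY-364747, at 3937 and 3422 CPM, and 1 of those with Carbidopa, at 3587 and 3523 CPM. These sums join genes that went opposite ways. Mean Ogn was 266 CPM in MEF and 1483 and 1684 CPM with Carbidopa and LY-364747. Mean Aspn was 855 CPM in MEF and 0.398 and 0.628 CPM with them, and Prelp, Lum and Podn were lower too.

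The make-up of the sum changed as well. Shares of a sum are tied to one another, so a lower Bgn alone raises those of the other genes. Divided by exonic length, to compare genes, Bgn made up 59.5% ± 1.45 of the summed CPM per kb in MEF (SD, n = 2), Aspn 13.7% ± 1.31, Dcn 11.1% ± 0.173 and Ogn 3.92% ± 0.102. With Carbidopa, Ogn made up 56.7% ± 0.541, Dcn 32.7% ± 1.63 and Bgn 6.65% ± 0.753. With LY-364747, Ogn made up 59.2% ± 1.09, Dcn 28.6% ± 0.492 and Bgn 7.93% ± 0.521. With CHIR-99021, Ogn made up 50.7% ± 0.748, Dcn 23.2% ± 0.219 and Bgn 22.5% ± 0.857. The Dcn share was thus above that in MEF although its level was lower, at 188 against 293 CPM per kb. The shares of Bgn and Ogn in MEF did not overlap with those in any treated library. The first place of Ogn in the treated groups rested on the division by length. Without it, Dcn held 49.0% of the summed CPM with Carbidopa and Ogn 37.4%. With LY-364747 Dcn held 43.9% and Ogn 39.9%. With CHIR-99021 Bgn held 33.2%, Dcn 32.7% and Ogn 31.5%.

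The order of the levels per kb followed. In MEF it ran from Bgn at 1572 CPM per kb through Aspn at 363, Dcn at 293, Lum at 121, Prelp at 116, Ogn at 104, Podn at 51.2, Fmod at 20.2 and Omd at 2.01 to Kera at 0.517. In that order Lum overlapped with both Prelp and Ogn, which did not overlap with each other, since Lum ran from 110 to 132 CPM per kb, Prelp from 114 to 118 and Ogn from 95.8 to 112. With Carbidopa the order was Ogn at 578 CPM per kb, Dcn at 333, Bgn at 67.8, Lum at 18.8, Prelp at 16.3, Podn at 4.15, Fmod at 0.567, Omd at 0.344, Aspn at 0.169 and Kera at 0.0618. Lum and Prelp overlapped there. With LY-364747 the first 6 genes kept that order, from Ogn at 656 CPM per kb to Podn at 4.81, followed by Omd at 0.707, Fmod at 0.656, Aspn at 0.267 and Kera at 0.134. Lum overlapped with Prelp, and Omd with Fmod. With CHIR-99021 Ogn stood at 411 CPM per kb, Dcn at 188 and Bgn at 181, which overlapped, then Lum at 17.0, Podn at 6.16, Prelp at 3.31, Aspn at 2.20, Omd at 0.231, Fmod at 0.175 and Kera at 0.0255. Omd at its lowest, 0.230 CPM per kb, was above Fmod at its highest, 0.226, by less than 1 read.

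**Figure D3:**
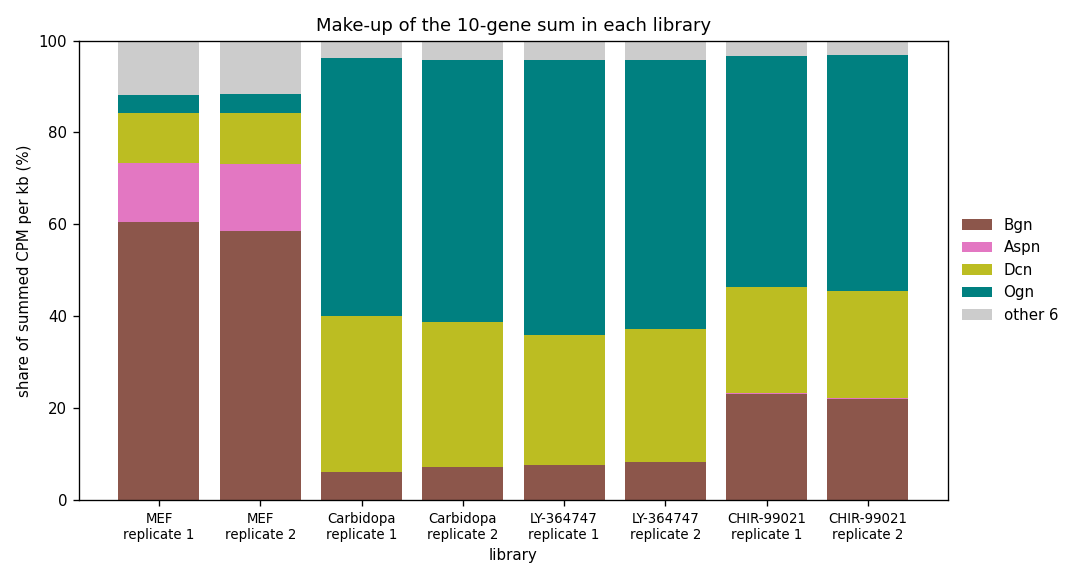
Share of the summed CPM per kb of the 10 genes held by Bgn, Aspn, Dcn, Ogn and the other 6 genes, in percent, for each library. Bgn holds 59.5% on average in MEF and 6.65% with Carbidopa, where Ogn holds 56.7%.

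Of the members, 8 sit in 3 groups along the chromosomes, in the coordinates of GRCm38 and GENCODE M21. On chromosome 13 the order is Ecm2, Aspn, Omd and Ogn, with gaps of 11.7, 14.9 and 15.2 kb. On chromosome 10 it is Dcn, Lum, Kera and Epyc, with gaps of 47.0, 34.2 and 30.4 kb. On chromosome 1 Prelp lies 2.30 kb from Optc and 116 kb from Fmod. Bgn is on chromosome X and Podn on chromosome 4. Neighbours within a group did not all move alike. On chromosome 13, over 120 kb, Ecm2, Aspn and Omd were lower and Ogn was higher with each compound. Ecm2 had few reads and passed the filter on low counts through the MEF libraries alone, so it could be tested only because it was higher there. On chromosome 10 Dcn was near its MEF level with Carbidopa and LY-364747 while Lum was lower. Kera, at few reads, was below MEF as well, without a call for LY-364747. On chromosome 1 Prelp and Fmod were both lower with each compound, while Optc, which had few reads, was not. Exons of Aspn overlap those of Cenpp on the other strand, which had 5 to 27 reads in a library.

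**Figure D4:**
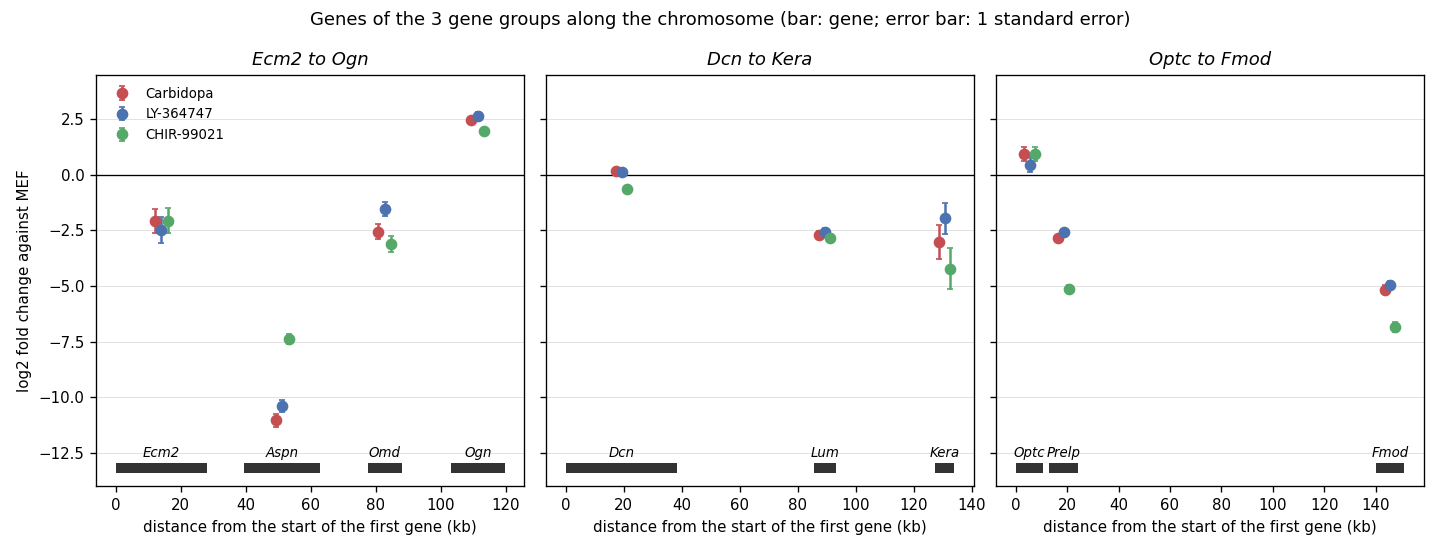
Log2 fold change against MEF of the genes in the 3 chromosomal groups, drawn at the middle of each gene with the distance in kb from the first gene's start. Dark bars are genes, points are estimates with 1 SE, colours are compounds, set slightly side by side. In the group from Ecm2 to Ogn, Aspn lies between -11.04 and -7.37 and Ogn, 2 genes further on, between 1.99 and 2.66. Epyc, not tested, is not drawn.

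Around the members, 49 other protein-coding genes lay within 250 kb, and 29 of them were tested. With Carbidopa 10 fell and 2 rose, with LY-364747 7 fell and 1 rose, and with CHIR-99021 7 fell and 3 rose. Over all genes tested, 19.7%, 17.2% and 20.1% were called lower and 18.0%, 13.7% and 18.7% higher. Dusp9, a MAP kinase phosphatase gene 143 kb from Bgn, rose with all 3 compounds, from a mean of 0.935 CPM in MEF to 5.02, 4.95 and 11.8 CPM (edgeR adjusted p = 6.54e-05, 7.75e-05 and 2.17e-06). Atp2b4, a calcium pump gene 109 kb from Prelp, fell with all 3, with log2 fold changes of -1.45, -0.98 and -1.11 (adjusted p = 0.000795, 0.00807 and 0.00368). Iars, 57.6 kb from Ogn, fell less, at -0.63, -0.60 and -0.41, and Ecm2 also fell with all 3. Dusp9, Atp2b4 and Iars were picked after their values were seen, so these p-values are description only.

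Core proteins related to the members, but outside the list, were tested in the same fit. Of 9 such genes 5 were tested. Tsku (tsukushi), a small leucine-rich protein that modulates BMP and Wnt signalling, rose with every compound. It had 54.0 and 54.8 CPM in MEF, 77.9 and 87.7 CPM with Carbidopa, 87.4 and 91.9 CPM with LY-364747, and 190 and 178 CPM with CHIR-99021. Its log2 differences from MEF came to 0.61 (SE 0.10, adjusted p = 0.00114), 0.72 (SE 0.10, adjusted p = 0.000380) and 1.76 (SE 0.10, adjusted p = 6.14e-07) in edgeR, with no overlap between treated and MEF libraries. CHIR-99021 exceeded Carbidopa by 1.15 (adjusted p = 8.63e-05) and LY-364747 by 1.04 (adjusted p = 0.000165). These calls were kept in all 14 alternatives run.

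Ecm2, the matrix protein gene next to Aspn, had 17 and 15 reads in MEF and 2 to 7 in each treated library. It fell, with log2 fold changes of -2.08, -2.49 and -2.07 (edgeR adjusted p = 0.0135, 0.00880 and 0.0154). Its calls rested on few reads, and like Kera it passed the filter on low counts through the MEF libraries alone, so that it could be tested only because it was higher there. Each was lost without MEF replicate 1 and in DESeq2, and over the left-out libraries the adjusted p ran up to 0.105, 0.106 and 0.128. Others were lost without MEF replicate 2 (Carbidopa and CHIR-99021), Carbidopa replicate 1, LY-364747 replicate 2 and either CHIR-99021 library, each for that compound. Optc (opticin), the vitreous member next to Prelp, had 13 and 20 reads in MEF and 28 to 53 in the treated libraries. It was called higher with Carbidopa, at 0.94 (adjusted p = 0.0421), and with CHIR-99021, at 0.95 (adjusted p = 0.0414). These calls were kept in 3 and 6 of the 14 alternatives, and lost when any 1 library other than those of Carbidopa was left out, with adjusted p up to 0.215 and 0.206. The Carbidopa call was lost without Carbidopa replicate 2 as well. Podnl1 and Chadl had no call against MEF. Podnl1 was higher with CHIR-99021 than with LY-364747 by 1.05 (adjusted p = 0.0422), a call kept in 7 of 14 alternatives and lost without any 1 library of MEF, CHIR-99021 or LY-364747, with adjusted p up to 0.278. Epyc (epiphycan), beyond Kera on chromosome 10, was not tested and had 6 and 10 reads in MEF, 0 in both Carbidopa libraries, 1 in both LY-364747 libraries, and 1 and 0 with CHIR-99021. Chad, Nyx and Nepn had at most 8 reads in any library.

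The gene lists from here on were chosen with earlier results of these data known. Their counts stand beside shares over all genes tested. With Carbidopa, LY-364747 and CHIR-99021 these were 19.7%, 17.2% and 20.1% called lower and 18.0%, 13.7% and 18.7% called higher. Enzymes that build the sugar chains mostly had small differences. Of 7 genes for the linkage region, through which chains join the core, 2 fell with Carbidopa, 2 with LY-364747 and 1 with CHIR-99021, and none rose. Without Carbidopa replicate 2, 1 rose with Carbidopa, and without either Carbidopa library 1 rose with CHIR-99021. The list medians were -0.16, -0.20 and 0.02 on the log2 scale. Xylt1, the xylosyltransferase that starts the chain, fell from 20.5 CPM in MEF to 4.17, 5.10 and 6.71 CPM, by log2 fold changes of -2.30, -2.00 and -1.61 (edgeR adjusted p = 2.63e-05, 6.99e-05 and 0.000255). B4galt7 fell at -0.47 with Carbidopa and -0.66 with LY-364747 (adjusted p = 0.0221 and 0.00462), and had 0.02 with CHIR-99021 (adjusted p = 0.918). Without MEF replicate 1 both B4galt7 calls were lost, with adjusted p up to 0.184 and 0.0606 over the left-out libraries, and the first also without Carbidopa replicate 2.

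Of 14 tested genes for chondroitin and dermatan sulfate chains, 7 fell and 1 rose with Carbidopa, 6 fell and 1 rose with LY-364747, and 5 fell and 2 rose with CHIR-99021. The CHIR-99021 counts went down to 3 lower without either MEF library or CHIR-99021 replicate 2 and up to 8 lower and 4 higher without either Carbidopa library, and the 2 higher genes became 0 without any 1 library of MEF or CHIR-99021 or LY-364747 replicate 1. With Carbidopa 2 rose without Carbidopa replicate 2. Csgalnact1, which starts chondroitin synthesis on the linkage region, fell from 163 CPM to 8.97, 8.65 and 6.94 CPM, by log2 fold changes of -4.18, -4.23 and -4.55 (adjusted p = 4.38e-09, 4.54e-09 and 5.62e-09). Its relative Csgalnact2 rose by 0.57 with Carbidopa and 0.45 with LY-364747 (adjusted p = 0.00349 and 0.0134), with adjusted p up to 0.0582 and 0.155 over the left-out libraries: both calls were lost without MEF replicate 1 and the second without LY-364747 replicate 1. Dsel, a dermatan sulfate epimerase, fell at -1.17, -1.08 and -0.89 (adjusted p = 0.000151, 0.000286 and 0.000912). Ust, a uronyl sulfotransferase, was called higher with CHIR-99021 alone, at 0.32 (adjusted p = 0.0280), a call kept in 6 of 14 alternatives with adjusted p up to 0.194.

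Of 8 tested genes for keratan sulfate chains, 2 fell with each compound and 1 rose with CHIR-99021. Each of the lower counts was 1 without either MEF library, as was that of LY-364747 without either of its own libraries and that of CHIR-99021 without any 1 library of CHIR-99021 or LY-364747. With Carbidopa 4 fell and 1 rose without Carbidopa replicate 2. B4galt1 fell at log2 fold changes of -0.85, -0.84 and -0.53 (adjusted p = 0.000126, 0.000143 and 0.00255). Chst2, a sulfotransferase, fell at -0.35 with Carbidopa and -0.36 with LY-364747 (adjusted p = 0.0187 and 0.0210), calls lost without either MEF library, and the second also without either LY-364747 library, with adjusted p up to 0.108 and 0.128. St3gal2, a sialyltransferase, rose by 0.51 with CHIR-99021 (adjusted p = 0.00357), and lost the call without MEF replicate 2, at an adjusted p of 0.0521. Of 12 genes that supply sugar nucleotides and sulfate, 4 fell and 2 rose with Carbidopa, 6 fell and 2 rose with LY-364747, and 4 fell and 1 rose with CHIR-99021. These were 1 lower without MEF replicate 2 for Carbidopa and 2 lower without any 1 library of MEF or LY-364747 for LY-364747. The higher genes were 1 without either MEF library for both, and also without LY-364747 replicate 1 for the second. With CHIR-99021 the 1 higher gene was 0 without MEF replicate 1 and 2 without either Carbidopa library. Papss2, which makes the sulfate donor, fell at log2 fold changes of -1.06, -0.99 and -1.08 (adjusted p = 6.03e-05, 9.93e-05 and 5.17e-05). Impad1, which clears a by-product of sulfation, fell at -0.57, -0.47 and -0.74 (adjusted p = 0.00827, 0.0238 and 0.00174), the first 2 calls being lost without MEF replicate 2 and the second also without either LY-364747 library, at adjusted p up to 0.0936 and 0.206. Ugp2 rose by 0.66 with Carbidopa and 0.58 with LY-364747 (adjusted p = 0.00106 and 0.00249). Slc35d1, a sugar nucleotide transporter, rose by 0.43, 0.51 and 0.56 (adjusted p = 0.0215, 0.0104 and 0.00538), with all 3 calls lost without MEF replicate 1, the first 2 without MEF replicate 2 and the second without LY-364747 replicate 1, at adjusted p up to 0.130, 0.125 and 0.0511.

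The collagens on which the members sit were lower almost throughout. Of 12 tested, 12 fell with Carbidopa, 12 with LY-364747 and 11 with CHIR-99021, and none rose. The medians were -1.72, -1.33 and -1.71 on the log2 scale. Shares over all genes tested were 19.7%, 17.2% and 20.1% called lower and 18.0%, 13.7% and 18.7% called higher. Col11a1, a fibril nucleator, fell from 210 CPM to 10.5, 13.2 and 21.4 CPM, by log2 fold changes of -4.31, -3.99 and -3.29 (edgeR adjusted p = 5.30e-09, 7.71e-09 and 2.61e-08). Col1a2, a chain of the main fibrillar collagen, fell from 3855 CPM to 980.1, 1043 and 781 CPM, by log2 fold changes of -1.98, -1.89 and -2.30 (adjusted p = 1.58e-07, 2.18e-07 and 5.99e-08). Of 14 tested proteases and their helpers that cut core proteins or procollagens, 12 fell and 2 rose with Carbidopa, and 11 fell and 2 rose with LY-364747 and with CHIR-99021. The higher pair with CHIR-99021 was 0 without MEF replicate 2 or CHIR-99021 replicate 1. Mmp13 fell at log2 fold changes of -4.98, -5.15 and -3.73 (adjusted p = 7.18e-08, 7.64e-08 and 2.57e-07) and Adamts5, an aggrecanase, at -1.61, -1.35 and -2.79 (adjusted p = 3.21e-06, 1.17e-05 and 9.38e-08). Mmp9 rose from 0.838 CPM to 21.2 CPM with Carbidopa and 16.0 CPM with LY-364747, by 4.66 and 4.26 (adjusted p = 3.08e-07 and 7.24e-07). With CHIR-99021 it was at 1.85 CPM, a log2 fold change of 1.15 (adjusted p = 0.0174, up to 0.187 over the left-out libraries). Pcolce, an enhancer of procollagen cleavage, rose by 0.96, 0.87 and 0.50 (adjusted p = 0.000315, 0.000655 and 0.0135), the last call being lost without either MEF library or CHIR-99021 replicate 1, at up to 0.104.

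The next 2 lists stand beside the same shares, 19.7%, 17.2% and 20.1% of all genes called lower and 18.0%, 13.7% and 18.7% called higher. Receptors and growth factors that bind the core proteins went both ways. Of 18 tested, 8 fell and 5 rose with Carbidopa, 7 fell and 5 rose with LY-364747, and 9 fell and 3 rose with CHIR-99021, the 9 being 6 without CHIR-99021 replicate 1. Wisp1, a matricellular protein gene, fell from 929 CPM to 41.5, 48.5 and 265 CPM, by log2 fold changes of -4.48, -4.26 and -1.81 (adjusted p = 4.89e-09, 6.16e-09 and 9.80e-07). Lrp1, an endocytic receptor for Dcn, fell at -2.96, -2.96 and -2.69 (adjusted p = 1.76e-08, 1.76e-08 and 3.28e-08). Tgfb2, a ligand that Dcn and Bgn can bind, rose by 2.14, 2.47 and 2.41 (adjusted p = 4.40e-07, 1.74e-07 and 1.91e-07), and Egfr, another receptor for Dcn, by 2.05, 2.29 and 2.67 (adjusted p = 4.59e-06, 2.25e-06 and 7.54e-07). Of 22 other proteoglycans tested, 13 fell and 5 rose with Carbidopa, 13 fell and 4 rose with LY-364747, and 12 fell and 5 rose with CHIR-99021. The 5 higher genes were 3 without either MEF library in both cases, and for CHIR-99021 also without CHIR-99021 replicate 1. Fewer genes were called lower as well, with Carbidopa without MEF replicate 2 and with LY-364747 without LY-364747 replicate 1. Cd44, the hyaluronan receptor, fell at log2 fold changes of -2.61, -2.73 and -1.92 (adjusted p = 6.54e-08, 4.83e-08 and 4.18e-07) and Vcan (versican) at -2.75, -2.42 and -1.91 (adjusted p = 7.62e-07, 1.72e-06 and 8.10e-06). Gpc3 (glypican 3), a heparan sulfate proteoglycan of the cell surface, rose from 25.8 CPM to 338, 336 and 166 CPM, by 3.71, 3.71 and 2.68 (adjusted p = 5.44e-09, 6.16e-09 and 4.15e-08). Esm1 (endocan) rose by 5.14, 4.90 and 5.26 from 0.583 CPM (adjusted p = 1.55e-07, 2.35e-07 and 1.20e-07).

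**Figure D5:**
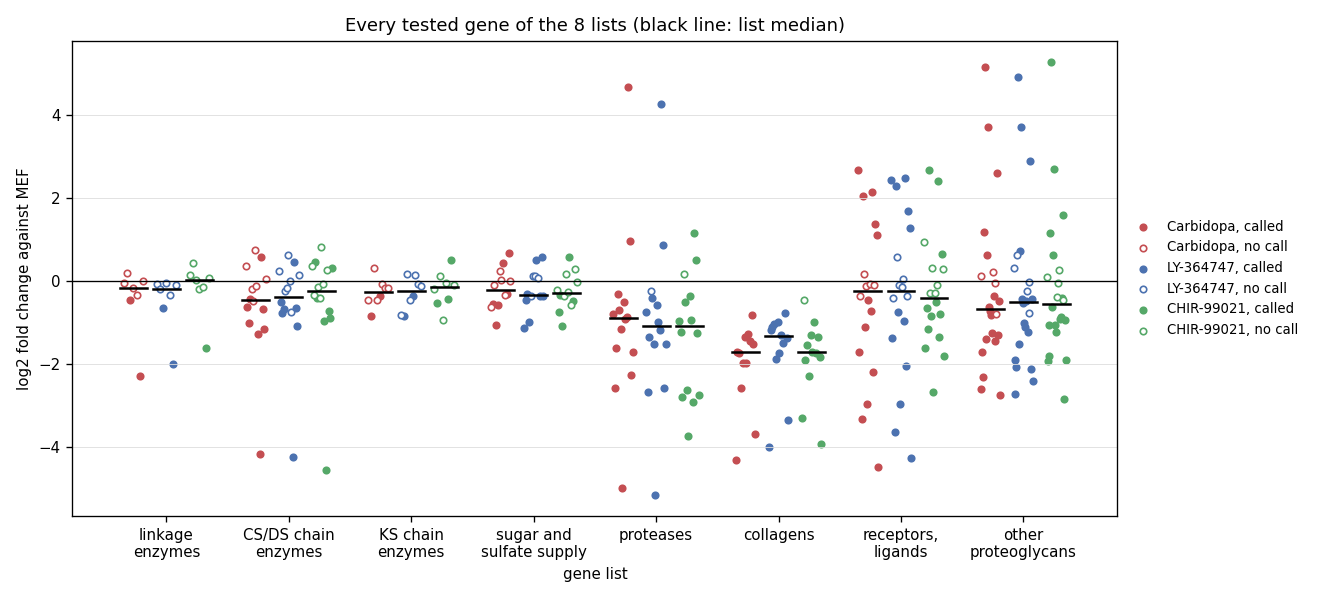
Log2 fold change against MEF of every tested gene in the 8 lists, by compound. Filled points were called at an adjusted p under 0.05 in edgeR, open points were not, and black lines are list medians. All filled collagen points lie below 0, while the proteases, receptors and other proteoglycans have called genes on both sides.

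Between the compounds, most calls over all genes involved CHIR-99021. In the fit over all 8 libraries 2227 genes were called for CHIR-99021 against Carbidopa and 2143 for CHIR-99021 against LY-364747. For LY-364747 against Carbidopa 2 were called. Against Carbidopa 3 members were called higher with CHIR-99021 and 4 lower, and against LY-364747 2 were called higher and 5 lower. Of all genes tested, 6.62% were called higher and 8.08% lower in the first comparison and 6.45% and 7.69% in the second, and as before nothing is read from the members' counts. Aspn was higher with CHIR-99021 by 3.68 (SE 0.35) against Carbidopa and 3.03 (SE 0.33) against LY-364747, and Bgn by 1.42 (SE 0.12) and 1.05 (SE 0.12). Prelp was lower, at -2.30 (SE 0.15) and -2.54 (SE 0.15), as were Fmod, at -1.69 (SE 0.32) and -1.89 (SE 0.32), and Dcn, at -0.83 (SE 0.13) and -0.76 (SE 0.13). The libraries of 8 members did not overlap between CHIR-99021 and Carbidopa, and those of 9 between CHIR-99021 and LY-364747, these 5 genes among them. This trait was not counted over all genes, so nothing is read from it. Ogn was lower too, at -0.49 (SE 0.13) and -0.68 (SE 0.13). For Lum the differences of -0.14 (95% interval -0.48 to 0.20) and -0.28 (95% interval -0.62 to 0.06) were not called, and its libraries overlapped.

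Several of these calls depended on 1 library or on the fit. When only the compared groups were fitted, Ogn and Podn were not called against Carbidopa, at -0.49 and 0.57, and Podn was called against LY-364747, at 0.35. In DESeq2 Omd was not called against LY-364747, at -1.62. Ogn against Carbidopa was not called without any 1 library of MEF or LY-364747, or CHIR-99021 replicate 1 (log2 fold change -0.34 for the last), and against LY-364747 not without CHIR-99021 replicate 1 (-0.52) or LY-364747 replicate 1 (-0.56). Dcn against LY-364747 was lost without CHIR-99021 replicate 1, at -0.61, and Fmod against Carbidopa without CHIR-99021 replicate 2, at -1.31. Podn, called 0.57 higher than with Carbidopa, was lost without CHIR-99021 replicate 1, at 0.50, and became a call against LY-364747, at 0.36, without either Carbidopa library. Omd, called lower than with LY-364747 at -1.60, was lost without any 1 library of either group, with values of -1.77 to -1.41. Without CHIR-99021 replicate 1 the count of members called against LY-364747 was 4 in place of 7.

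Between Carbidopa and LY-364747 no member was called. Of all genes tested 2 were called, 0.0132% (15 in DESeq2), while 1367 genes had an unadjusted p under 0.05 in edgeR. The largest estimates were those of 2 low members, Kera, 1.06 higher with LY-364747 (95% interval -0.96 to 3.09), and Omd, 1.03 higher (95% interval 0.22 to 1.85) with no overlap between its libraries. Among the members above 10 CPM in both groups the largest was that of Bgn, 0.37 higher with LY-364747 (SE 0.12; 95% interval 0.10 to 0.63). For Ogn it was 0.18 (95% interval -0.11 to 0.48), for Dcn -0.07 (-0.36 to 0.21), for Prelp 0.24 (-0.05 to 0.53) and for Podn 0.21 (-0.03 to 0.46). For Aspn, at under 1 CPM in both groups, the interval ran from -0.53 to 1.83. Without Carbidopa replicate 2, Bgn at 0.49 and Prelp at 0.46 were called higher with LY-364747, and 3816 genes in all were called.

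Across the 8 libraries, Aspn and Bgn had the most alike patterns within the family, with a Pearson correlation of log2 CPM of 0.999, and Aspn and Ogn ran opposite, at -0.981. Dcn had -0.13 with Aspn and -0.12 with Bgn. Such correlations over 8 libraries in 4 groups mostly restate the group means, share the library scaling, and are given as a description. Outside the family, the 2 genes most alike were Itgb1, at 0.999, and Ptpra for Aspn, Ptpra and Ttll7 for Bgn, Pet100 and Rps27 for Dcn, Lgalsl and L1cam for Lum, Sfrp2 and Cd80 for Fmod, Gm2115 and Adamts5 for Prelp, Plscr2 and Gucy1a3 for Ogn, Mtss1l and Kazn for Podn, Trp53inp2 and AI504432 for Omd, and Gm28438 and Mrps14 for Kera. These correlations ran from 0.974 for Mrps14 to 0.999. Likeness of pattern was not likeness of size: Itgb1, the beta chain of collagen-binding integrins, differed from MEF by -1.02, -0.98 and -0.67, against -11.04, -10.39 and -7.37 for Aspn. Plscr2, the gene most like Ogn, was higher by 2.97, 3.11 and 2.26.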

How the data were processed

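Bulk RNA-seq was measured in 8 libraries of mouse embryonic fibroblasts, 2 for each of 4 groups. The authors aligned reads with STAR 2.4.2a to mm10, per the labels, and deposited a table of raw read counts per gene for all libraries. DESeq2 is also named in the submitters' notes. Counting by featureCounts is named in the methods, while the annotation release and strand setting were not given in the sources used here. The kit named in the labels differs from that in the methods. Totals of 15039566 to 20504338 counts limit the precision of low genes, and intervals on reads cover counting error only.

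The members and all gene and marker lists were chosen with earlier results of these data known. The whole table was fitted in edgeR 4.0.16 (R 4.3.3) with filterByExpr, TMM scaling and the quasi-likelihood test, group being the only term, and p-values were Benjamini-Hochberg adjusted over all 15154 genes tested. Calls are at an adjusted p under 0.05. An SE is the log2 fold change divided by the root of its F statistic. The procedure was checked on simulated data. Named genes were the 10 members, all 9 related core proteins, up to 2 lower and 2 higher genes with the smallest p per list, the 2 most correlated non-member genes (prior count 2) per member, and neighbours within 250 kb. Of those neighbours, Dusp9, Atp2b4 and Iars were picked after their values were seen. Of the identifiers, 99.6% were found in GENCODE M21, which gave positions and exonic lengths, and RefSeq gave promoters. Alternatives were RLE factors, DESeq2 1.42.0, no filter, at least 10 counts in every library, only the compared groups, a replicate block and each library left out. Protein sequences were not used here.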

Additional observations from a re-analysis of the deposited data

How the results depend on the processing

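Of 813 log2 fold changes of members recomputed under the alternatives none reversed in direction among those called. Members called were 9, 8 and 10 against MEF with Carbidopa, LY-364747 and CHIR-99021, 7 for CHIR-99021 against Carbidopa, 7 against LY-364747 and 0 between LY-364747 and Carbidopa. With at least 10 counts in every library they were 5, 5 and 6 against MEF and 4 for CHIR-99021 against LY-364747, since Aspn, Fmod, Omd and Kera were not tested there. With 1 library left out they ran from 8 to 9, 7 to 9 and 9 to 10 against MEF, from 5 to 7 and from 4 to 8 for CHIR-99021 against Carbidopa and LY-364747, and from 0 to 2 for LY-364747 against Carbidopa. Genes called ran from 3142 to 7996 around 5717 with Carbidopa, 2841 to 6519 around 4694 with LY-364747, 3433 to 7800 around 5878 with CHIR-99021, 715 to 4632 around 2227 and 663 to 4228 around 2143 for CHIR-99021 against Carbidopa and LY-364747, and 2 to 3816 around 2 for LY-364747 against Carbidopa. The lowest counts came without MEF replicate 2 or CHIR-99021 replicate 1 (2 genes in several fits for the last comparison) and the highest without a Carbidopa library. Where a lone library was left, it was assumed to vary like the other groups. Fitting only the compared groups gave 1027, 3673 and 0 genes in the last 3 comparisons, and the last had 15 in DESeq2 and 329 with no filter on low counts. The cause was not tested. Replicates 1 and 2 share only a number across groups. Their deviations correlated between -0.161 and 0.128, so pairing was not shown, and with a replicate block the genes called were 5473, 4424, 5722, 2010, 1973 and 2, with no change in the counts of members called. Depth limits Kera, Omd, Ecm2 and Epyc most, and Aspn in the treated libraries.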
